A study of Oryctolagus cuniculus with 36 samples.

Results

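The genes described are 5 regulators and 5 secreted proteins of the acute phase response, the change in plasma proteins that the liver makes during inflammation. STAT3, SOCS3, IL6R, OSMR and CEBPD make up the regulators. CRP, HP, HPX, LCN2 and LBP are the secreted proteins. They were chosen by symbol as 10 of the 23394 genes in a table of counts from rabbit liver, and all 10 passed the filter on low counts. The study concerns CRISPR/Cas9 gene correction, soon after birth, of rabbits that carry hereditary tyrosinemia type I, in which FAH, the last enzyme of tyrosine breakdown, is lost. Its 36 RNA libraries bear titles of 3 groups, FK, FA and WT (wild type), with 12 libraries each. The labels do not spell out FK or FA, name no editing agent, drug, strain or age, and give every library, WT included, the same disease model. What sets FK apart from FA is therefore known only from the titles. Each group holds 3 numbered sets of 4 libraries, for example FK 1, FK 2 and FK 3. No label says that the libraries of a set, or the sets themselves, came from separate animals. The 4 libraries of a set were summed, so n = 3 sets per group throughout, and p-values measure only the spread between sets, which may be technical.

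Interleukin-6 and its relatives, such as oncostatin M, bind receptors that share the signalling chain gp130, which IL6ST encodes. Janus kinases on these receptors phosphorylate the transcription factor STAT3, which enters the nucleus and turns on its targets. SOCS3 is such a target and binds gp130 and its kinases, which ends the signal. Hepatocytes answer with plasma proteins that bind microbial surfaces, free hemoglobin, heme or iron, and interleukin-1 adds to the response through other factors.

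The sets held 53.2 to 61.9 M counts in FK, 62.4 to 78.6 M in FA and 61.0 to 67.4 M in WT. Levels are CPM, counts per M counts after scaling by TMM (trimmed mean of M values), and are not corrected for gene length, so they are compared between groups and not between genes. FAH, the check of the labels, lay at 11.8 to 16.4 CPM in FK, 19.6 to 25.7 CPM in FA and 217.5 to 271 CPM in WT. As a check of the label of liver, 11 of 12 hepatocyte markers were matched and none of these was at 0 in any set, with summed levels of 20150 to 26681 CPM in FK, 15992 to 18205 CPM in FA and 14508 to 17579 CPM in WT. Such sums weigh abundant genes most. Gene by gene, the fitted FK change against WT was above 0 for 6 of the 11, with a median of 0.11 log2 units. An unadjusted p under 0.05 by edgeR was found for 3, all lower in FK, and for 26.9% of all genes in either direction. The FK sets did not resemble each other equally. Over the 14939 genes that passed the filter, the log values of FK 3 correlated at r = 0.854 with FK 1 and 0.821 with FK 2, against 0.958 to 0.970 with the FA sets, while FK 1 and FK 2 correlated at 0.963. Summed levels of 11 matched neutrophil markers were 1219 CPM in FK 1, 2094 in FK 2 and 37.1 in FK 3, against 25.1 to 49.7 in FA and 27.9 to 34.2 in WT. Summed levels of 11 matched erythroid markers were 710 CPM in FK 1, 1947 in FK 2 and 14.5 in FK 3, against 7.33 to 22.6 in FA and 17.4 to 81.5 in WT. Results are therefore given with and without FK 3, and without FK 1 and FK 2. The last of these leaves 1 set in the FK arm, which is assumed to vary as the FA and WT sets do, so its p-values hold no spread of FK and are given as a description. In whole liver, fewer cells of a type and less RNA per cell cannot be told apart.

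Among the regulators, STAT3, SOCS3 and OSMR rose in FK livers against WT livers, while the receptor IL6R stayed within the range of WT in every FK set. The STAT3 mean was 368 ± 53.2 CPM in FK and 137 ± 31.1 CPM in WT, SOCS3 51.3 ± 31.5 and 5.06 ± 2.29, and OSMR 45.6 ± 29.1 and 12.6 ± 1.78 (SD, n = 3 each). CEBPD averaged 128 CPM in FK and 45.4 CPM in WT and missed the threshold. The words rose and fell are kept for genes called by edgeR's quasi-likelihood test at an adjusted p under 0.05, by the Benjamini-Hochberg method over all 14939 genes. By this rule 3 of 5 regulators rose in FK and 0 fell, while 3.04% of all genes rose and 1.73% fell in the same comparison.

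STAT3, the transcription factor that the cytokine receptors activate, had 321, 358 and 426 CPM in FK 1, 2 and 3, 202, 365 and 268 CPM in FA 1, 2 and 3, and 143, 103 and 165 CPM in WT 1, 2 and 3. All FK sets and all FA sets lay above all WT sets, and FA 2 lay within the FK range. The log2 change was 1.43 in FK against WT (SE 0.30, 95% interval 0.75 to 2.10, edgeR adjusted p = 0.0414). For FA against WT the change was 1.02 (SE 0.30, 95% interval 0.35 to 1.69), with a raw p of 0.00723 that did not pass the adjustment over all genes (edgeR adjusted p = 0.305). FA and FK differed by -0.40 (SE 0.29, edgeR adjusted p = 0.439). Among the 9 sets STAT3 was highest in FK 3. There the neutrophil marker sum was 37.1 CPM, against 27.9 to 34.2 CPM in WT. The erythroid marker sum was 14.5 CPM, below the 17.4 to 81.5 CPM in WT. The change against WT from FK 3 alone, without FK 1 and FK 2, was 1.61. The part of neutrophils and erythroid cells in the STAT3 level was not tested.

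SOCS3, the feedback inhibitor that STAT3 induces, had 58.5, 78.6 and 16.8 CPM in FK, 5.81, 29.8 and 9.97 CPM in FA, and 6.71, 6.02 and 2.45 CPM in WT. Every FK set exceeded every WT set, but FK 3 lay below FA 2, and FA 1 lay among the WT sets. The change in FK against WT was 3.34 log2 units (SE 0.77, 95% interval 1.59 to 5.09, edgeR adjusted p = 0.0486). FA against WT gave 1.59 (SE 0.72, edgeR adjusted p = 0.497) and FA against FK gave -1.76 (SE 0.72, raw p = 0.0385, edgeR adjusted p = 0.205). FA 2 was 2.99-fold above FA 3 and 5.13-fold above FA 1.

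OSMR encodes the receptor chain that pairs with gp130 to bind oncostatin M. Its levels were 75.8, 43.2 and 17.8 CPM in FK, 8.54, 11.5 and 10.04 CPM in FA, and 12.3, 10.9 and 14.4 CPM in WT. All FK sets lay above all sets of the other groups, which overlapped. FK exceeded WT by 1.86 log2 units (SE 0.44, 95% interval 0.86 to 2.86, edgeR adjusted p = 0.0494), and FA lay below FK by a log2 difference of -2.18 (SE 0.45, edgeR adjusted p = 0.115). The value against WT was 0.47 from FK 3 alone (edgeR adjusted p = 0.395).

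IL6R, the receptor chain that recognises interleukin-6, had 36.0, 31.7 and 43.0 CPM in FK, 28.8, 35.4 and 30.7 CPM in FA, and 25.5, 26.5 and 44.8 CPM in WT. The 3 groups overlapped, and the highest single set was WT 3. The 95% interval of the FK change against WT ran from -0.37 to 0.75 log2 units around 0.19 (edgeR adjusted p = 0.654).

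CEBPD, a transcription factor that acts beside STAT3 on acute phase promoters, had 126, 198 and 61.0 CPM in FK, 25.3, 62.4 and 20.4 CPM in FA, and 25.4, 26.7 and 84.1 CPM in WT. WT 3 was 3.15-fold above the next WT set and exceeded FK 3. CEBPD differed by 1.50 log2 units (SE 0.64, raw p = 0.0445, edgeR adjusted p = 0.175) in FK against WT, and by 1.82 without FK 3 (edgeR adjusted p = 0.0448) and 2.28 without WT 3 (edgeR adjusted p = 0.139). FA differed from WT by -0.33 (edgeR adjusted p = 0.907) and from FK by -1.83 (raw p under the threshold, edgeR adjusted p = 0.157).

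**Figure D1:**
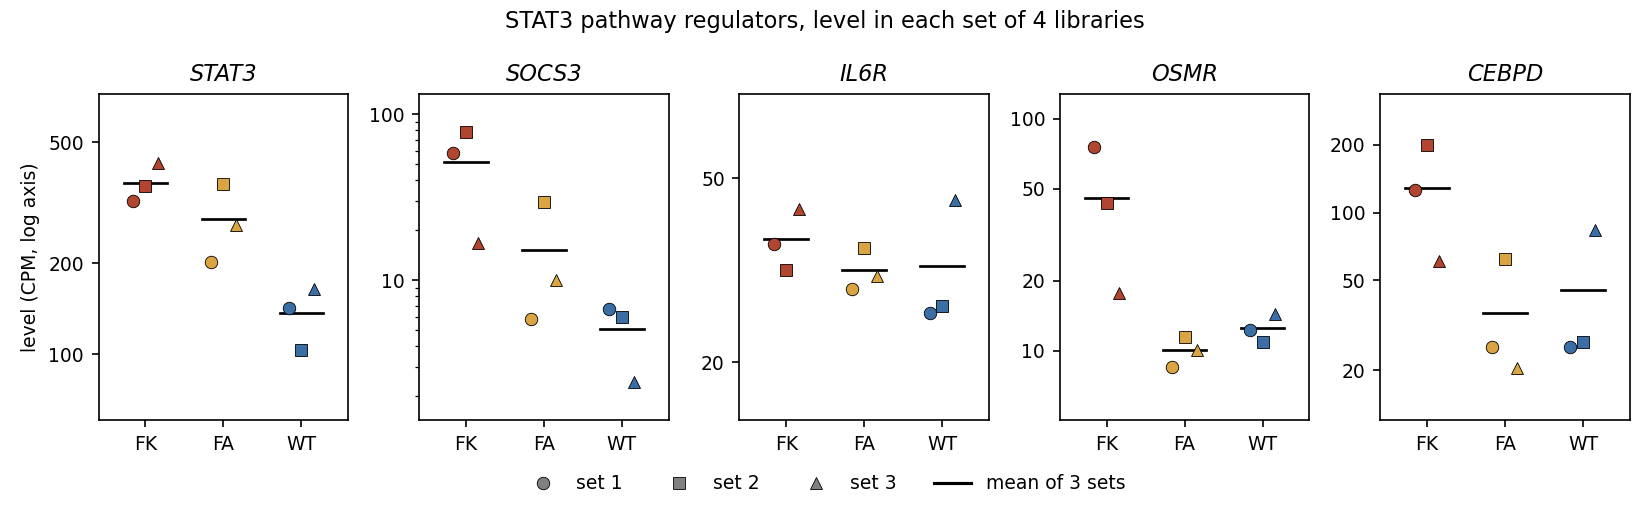
Levels of the 5 regulators in each of the 9 sets, in CPM on a log axis, with a point per set and a bar for the mean of 3 sets. STAT3 lies above all WT sets in every FK and FA set, OSMR in every FK set, and IL6R overlaps between the groups.

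The 3 calls among the regulators lay close to the threshold. Without FK 3, STAT3, SOCS3, OSMR and CEBPD all passed, as higher in FK, but so did 18.7% of all genes. With FK 3 as the only FK set, 0 of the 5 passed by edgeR, STAT3 had an unadjusted p under 0.05, and 0.34% of all genes were called higher. Leaving out any of the other 8 sets (FK 1, FK 2, the FA sets or the WT sets) ended the 3 calls, with edgeR adjusted p of 0.0572 to 0.161 for STAT3 and SOCS3 and 0.0759 to 0.173 for OSMR, while the changes stayed at 1.25 to 1.56, 2.90 to 3.58 and 1.28 to 1.94 log2 units. SOCS3, OSMR and CEBPD were lowest among FK sets in FK 3, where the neutrophil and erythroid marker sums were also lowest. The part of those cells in these 3 genes was not tested.

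Among the secreted proteins, LBP stood out in FK livers at 2485 ± 1083 CPM, against 297 ± 73.4 CPM in WT livers, and LCN2 was high in FK 1 and FK 2 alone. CRP and HPX were higher in every FK set than in every WT set, with means of 11520 and 4210 CPM for CRP and 14680 and 7612 CPM for HPX, and HP overlapped. None of the 5 passed the adjusted threshold in edgeR, 2 (LCN2 and LBP) had an unadjusted p under 0.05, and DESeq2 called the same 2, with 10.7% of all genes called higher. An alternative in limma-voom took the 36 libraries singly, 12 per group, with a within-set correlation of 0.791 assumed for all genes. It called CRP, HPX and LBP, and 7.8% of all its genes, as higher in FK. For these 3 genes the coefficient of variation was 113.3%, 58.4% and 103.2% between FA sets, against medians of 4.71%, 3.035% and 6.04% within sets. Where the libraries of a set are more alike than the assumed correlation, this fit gives p-values that are too small. The 5 genes together took 3.99%, 3.85% and 5.08% of all counts in FK 1, 2 and 3, 1.02%, 3.91% and 1.63% in FA 1, 2 and 3, and 2.13%, 1.59% and 2.60% in WT 1, 2 and 3. FA 2 thus lay within the FK range, and FA 1 lay below all WT sets.

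LBP encodes the protein that carries bacterial lipopolysaccharide to CD14. It had 3219, 2995 and 1241 CPM in FK, 150, 1172 and 289 CPM in FA, and 379, 236 and 277 CPM in WT. All FK sets exceeded all FA and WT sets, and FA 2 lay just below FK 3. FK differed from WT by 3.06 log2 units (SE 0.77, 95% interval 1.32 to 4.81, raw p = 0.00333, edgeR adjusted p = 0.0544). Without FK 3 the value was 3.37 (edgeR adjusted p = 0.00718), and without FA 2 it was 3.05 and passed (edgeR adjusted p = 0.0439). From FK 3 alone it was 2.03 (edgeR adjusted p = 0.314). FA against WT gave 0.85 (edgeR adjusted p = 0.752), and FA against FK gave -2.21 (raw p = 0.0161, edgeR adjusted p = 0.146).

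CRP, C-reactive protein, binds phosphocholine on microbes and damaged cells. It had 10023, 10341 and 14197 CPM in FK, 797, 9527 and 2126 CPM in FA, and 2931, 2782 and 6917 CPM in WT. Every FK set exceeded every other set, whereas FA 1 and FA 3 lay below all WT sets and FA 2 above them. FA 2 was 11.95-fold above FA 1 and 4.48-fold above FA 3. The FK change against WT was 1.45 log2 units with a 95% interval of -0.50 to 3.40 (SE 0.86, edgeR adjusted p = 0.309). Without FA 2 it was 1.44 (edgeR adjusted p = 0.175). FA against WT gave -0.02 (edgeR adjusted p = 0.996). Without FA 2 the FA change was -1.53 (edgeR adjusted p = 0.544).

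Hemopexin (HPX), the plasma carrier of free heme, had 14384, 10406 and 19250 CPM in FK, 4350, 13592 and 6722 CPM in FA, and 8096, 5372 and 9368 CPM in WT. All FK sets lay above all WT sets, and FA 2 lay above FK 2. The FK change against WT was 0.95 log2 units (edgeR adjusted p = 0.331). Haptoglobin (HP), which binds free hemoglobin, had 9548, 6831 and 18439 CPM in FK, 5958, 15519 and 7871 CPM in FA, and 9389, 7839 and 11803 CPM in WT. Its groups overlapped throughout. The FK change of 0.26 (edgeR adjusted p = 0.812) was -0.26 without FK 3.

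LCN2 encodes lipocalin 2, which takes iron from bacteria by binding their siderophores and is made both by hepatocytes in the acute phase and by neutrophil precursors. Its levels were 112, 439 and 0.253 CPM in FK 1, 2 and 3, 3.20, 0.940 and 0.0837 CPM in FA 1, 2 and 3, and 0.783, 2.37 and 0.680 CPM in WT 1, 2 and 3. FK 3, measured by 15 counts, lay below all WT sets, and FK 1 was 443-fold and FK 2 1732-fold above it. FA 3, with 5 counts, was the lowest of all sets. The fitted FK change of 7.17 log2 units had a 95% interval of 2.31 to 12.02 (SE 2.14, raw p = 0.00874, edgeR adjusted p = 0.0792), was 7.73 without FK 3 (edgeR adjusted p = 0.00176), 5.46 without FK 2 (edgeR adjusted p = 0.165) and -2.36 from FK 3 alone.

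**Figure D2:**
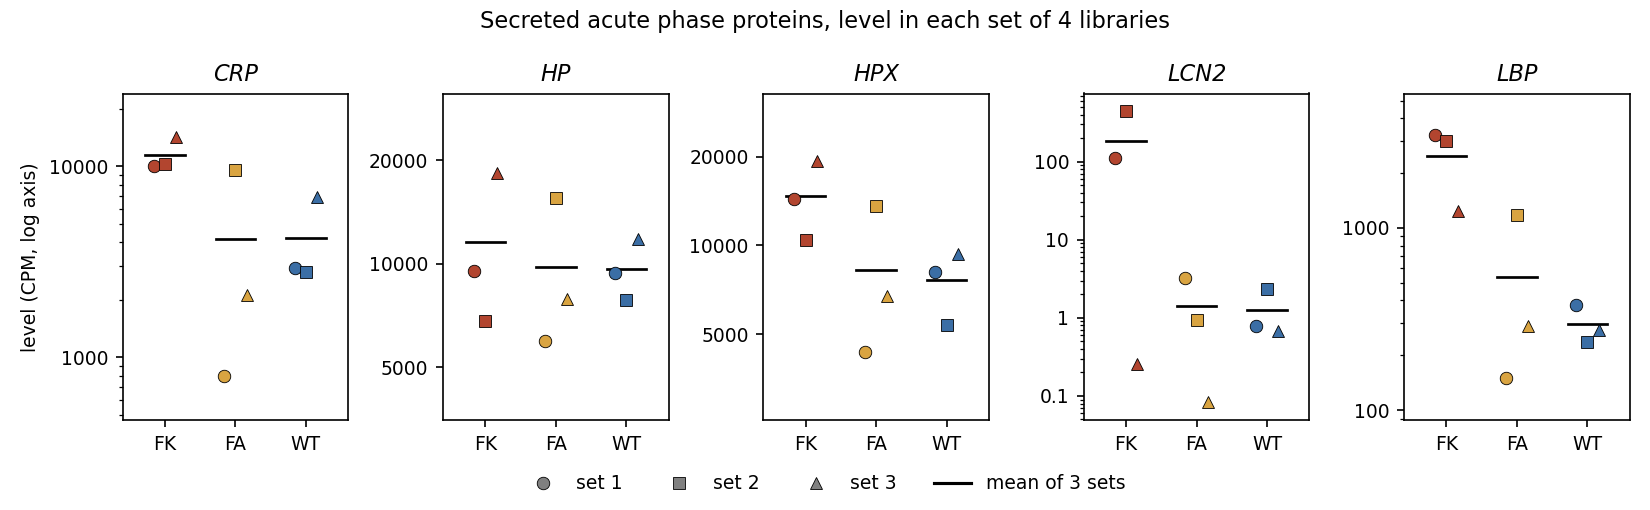
Levels of the 5 secreted proteins in each of the 9 sets, in CPM on a log axis, with a point per set and a bar for the mean of 3 sets. LBP is above all FA and WT sets in every FK set, LCN2 is high in FK 1 and FK 2 only, and FA 2 lies above the other FA sets for CRP, HP, HPX and LBP.

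The neutrophil markers had the same 2 high sets as LCN2. Of the 15 markers listed 11 were matched, and of 10 tested 4 rose in FK against WT, namely S100A8, S100A9, S100A12 and CAMP. Over all genes 3.04% rose in that comparison. CAMP, the granule peptide cathelicidin, had 128, 500 and 1.86 CPM in FK, against 1.34, 3.08 and 1.17 CPM in WT (edgeR adjusted p = 0.0491). MPO, the peroxidase of neutrophil granules, also picked after its values were seen, had 8.25, 18.5 and 0.0169 CPM in FK, against 0.0639, 0.129 and 0.259 CPM in WT. The S100A genes have similar copies, among which estimated counts divide shared reads. The part of neutrophils and of erythroid cells in the LCN2 level was not tested. In FK 3 LBP was 1241 CPM and the neutrophil sum 37.1 CPM, and a part of neutrophils in the LBP level was not tested either.

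**Figure D3:**
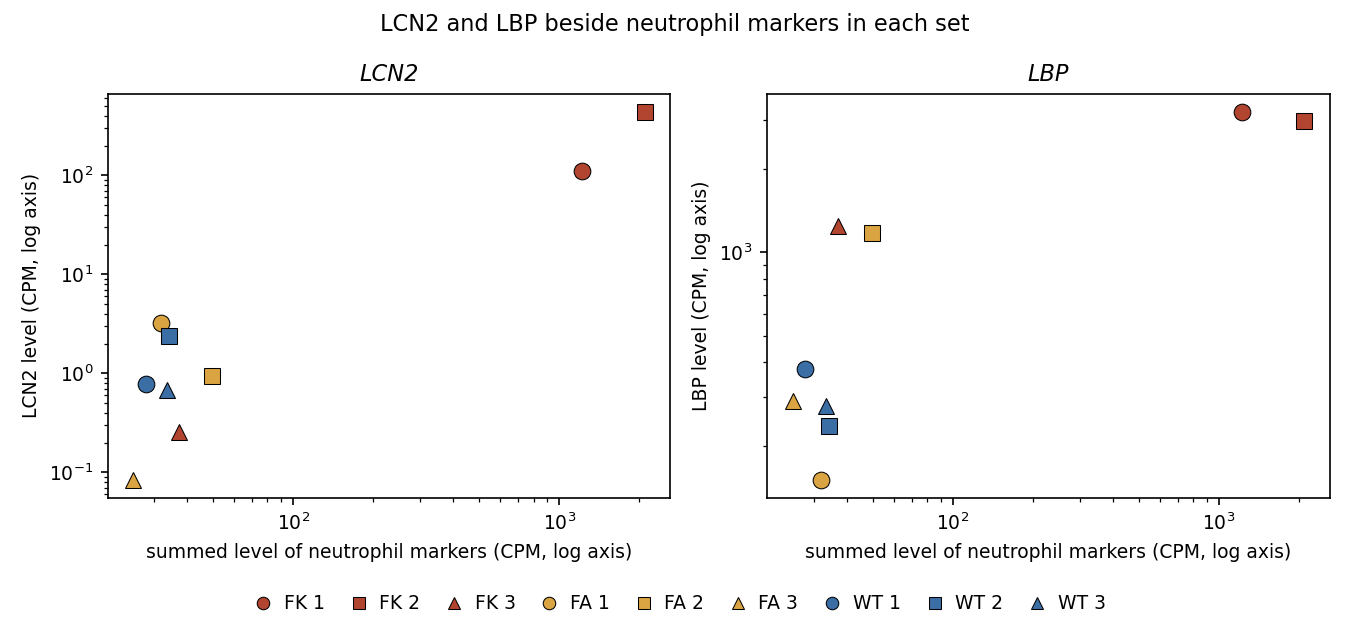
LCN2 and LBP levels (vertical axes, CPM, log scale) against the summed level of 11 neutrophil markers (horizontal axis, CPM, log scale), with a point per set, 3 per group. LCN2 and the marker sum are both high in FK 1 and FK 2 alone, and LBP in FK 3 is 1241 CPM at a marker sum of 37.1 CPM.

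FK had the highest mean of the 3 groups for 10 of 10 genes, and the fitted FK change against WT was above 0 for all 10. The median change was 1.50 log2 units over the 5 regulators and 1.45 over the 5 secreted proteins, against 0.05 over all genes tested. The FK and WT sets did not overlap, with FK above, for 6 of 10 genes (STAT3, SOCS3, OSMR, CRP, HPX and LBP), and for 13.9% of all genes. An unadjusted p under 0.05 was found for 6 of 10 genes (STAT3, SOCS3, OSMR, CEBPD, LCN2 and LBP), and for 26.9% of all genes. In FA against WT, edgeR called 0 of the 10 and 0.167% of all genes. STAT3 was the only one of the 10 whose FA sets all lay above the WT sets, as 12.4% of all genes did, and the only one with an unadjusted p under 0.05, as 10.2% had. DESeq2 called STAT3 alone, with 1.15% of all genes called higher, and so did limma-voom, with 1.74%. The median FA change was -0.03 over the regulators and 0.11 over the secreted proteins, against 0.0035 over all genes.

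FA was set against FK directly, and all 10 fitted differences were below 0. The median was -1.76 log2 units over the regulators and -1.47 over the secreted proteins, against -0.02 over all genes. The FA sets lay wholly below the FK sets for OSMR, CRP and LBP, 3 of 10, and for 8.99% of all genes. The count of called genes was 0 by edgeR among the 10 and among all 14939 genes (0%). An unadjusted p under 0.05 was found for 5 of 10 (SOCS3, OSMR, CEBPD, LCN2 and LBP) and for 21.9% of all genes, and DESeq2 called 4 of 10 (OSMR, CEBPD, LCN2 and LBP) as lower in FA and 8.75% of all genes. By limma-voom on the 36 libraries, 6 of 10 were called lower (SOCS3, OSMR, CEBPD, CRP, HPX and LBP), as were 6.28% of its genes. That fit held the same assumed correlation, with the same limit on its p-values. The comparisons share their control and FK sets, so that their values for a gene are not independent of each other.

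**Figure D4:**
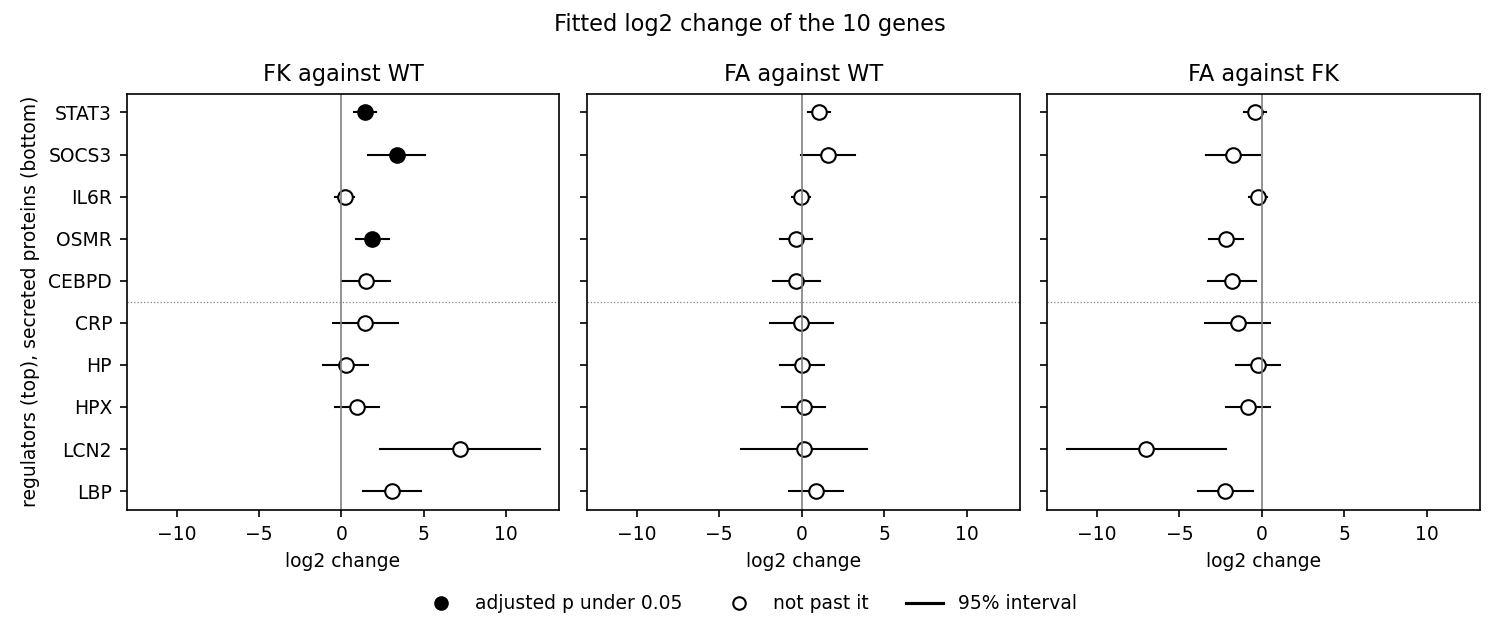
Fitted log2 changes of the 10 genes in FK against WT, FA against WT and FA against FK, with bars for 95% intervals from edgeR. Intervals of STAT3, SOCS3, OSMR, CEBPD, LCN2 and LBP lie above 0 in FK against WT, and all 10 points lie below 0 in FA against FK.

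The spread between sets exceeded the median spread between the libraries of a set, taken over all 9 sets, for 8 of the 10 genes in each group. The exceptions were IL6R, with 10.6% between FA sets against a median of 13.8% within sets, and OSMR, with 14.8% between FA sets and 14.2% between WT sets against 16.6% within. Single sets could spread as widely: IL6R had 13.9% to 16.5% within FK sets and 15.4% between them, and STAT3 had 15.2% within FK 2 and 14.4% between FK sets. For CRP the coefficient of variation was 113.3% between FA sets and at the median 4.71% between the 4 libraries of a set, and for LBP it was 103.2% and 6.04%. STAT3 had 29.4% between FA sets and 8.18% within sets. FA 2 was the highest FA set for 9 of the 10 genes, all but LCN2, and FA 1 was the lowest for 8. FK 3 was the highest FK set for STAT3, IL6R, CRP, HP and HPX and the lowest for SOCS3, OSMR, CEBPD, LCN2 and LBP. WT 3 was the highest WT set for 7 of 10. These orders were seen in the data and were not tested.

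Other acute phase genes were taken from a list of 30, of which 20 were matched and tested. In FK against WT edgeR called 0 of 20, 8 had an unadjusted p under 0.05, all higher in FK, and DESeq2 called 8 as higher. Over all genes 26.9% had an unadjusted p under 0.05 and DESeq2 called 10.7% higher. The median change was 0.84, against 0.05 over all genes. The fitted change was above 0 for 15 of the 20 and below 0 for the rest. The smallest p belonged to STEAP4, an iron and copper reductase listed under a LOC identifier, with 604, 148 and 514 CPM in FK, 40.6, 281 and 55.8 CPM in FA, and 59.7, 42.9 and 62.1 CPM in WT (log2 change 2.94, edgeR adjusted p = 0.0643). Without FK 3 edgeR called 9 of 20 higher, among them the 3 fibrinogen chains, beside 18.7% of all genes, and from FK 3 alone it called 0, beside 0.34% of all genes.

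In FA against WT the smallest p of that list belonged to SAA3, a serum amyloid A gene. It had 249, 42.7 and 6.50 CPM in FK, 2.43, 1349 and 1.77 CPM in FA, and 7.59, 12.1 and 5.36 CPM in WT, and the FA change of 5.76 (edgeR adjusted p = 0.472) rested on FA 2. Next come 3 genes chosen after their values were seen. ORM1, an orosomucoid gene, had 5576, 3694 and 65.2 CPM in FK, 12.4, 932 and 39.5 CPM in FA, and 23.4, 4.70 and 167 CPM in WT (FK change 5.58, edgeR adjusted p = 0.146). FGA, the fibrinogen alpha chain, had 26065, 17944 and 13220 CPM in FK, 4641, 11465 and 6264 CPM in FA, and 8036, 5713 and 6616 CPM in WT (FK change 1.49, edgeR adjusted p = 0.135). CP, ceruloplasmin, the ferroxidase of plasma, had 13242, 5962 and 2038 CPM in FK, 407, 3095 and 1154 CPM in FA, and 1243, 553 and 1523 CPM in WT (FK change 2.68, edgeR adjusted p = 0.104). FA 2 was the highest FA set for 17 of the 20 genes, the exceptions being HAMP, for which it was the lowest, FTL and IL1RN. Serum amyloid A and orosomucoid genes have similar copies, so their counts are uncertain.

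**Figure D5:**
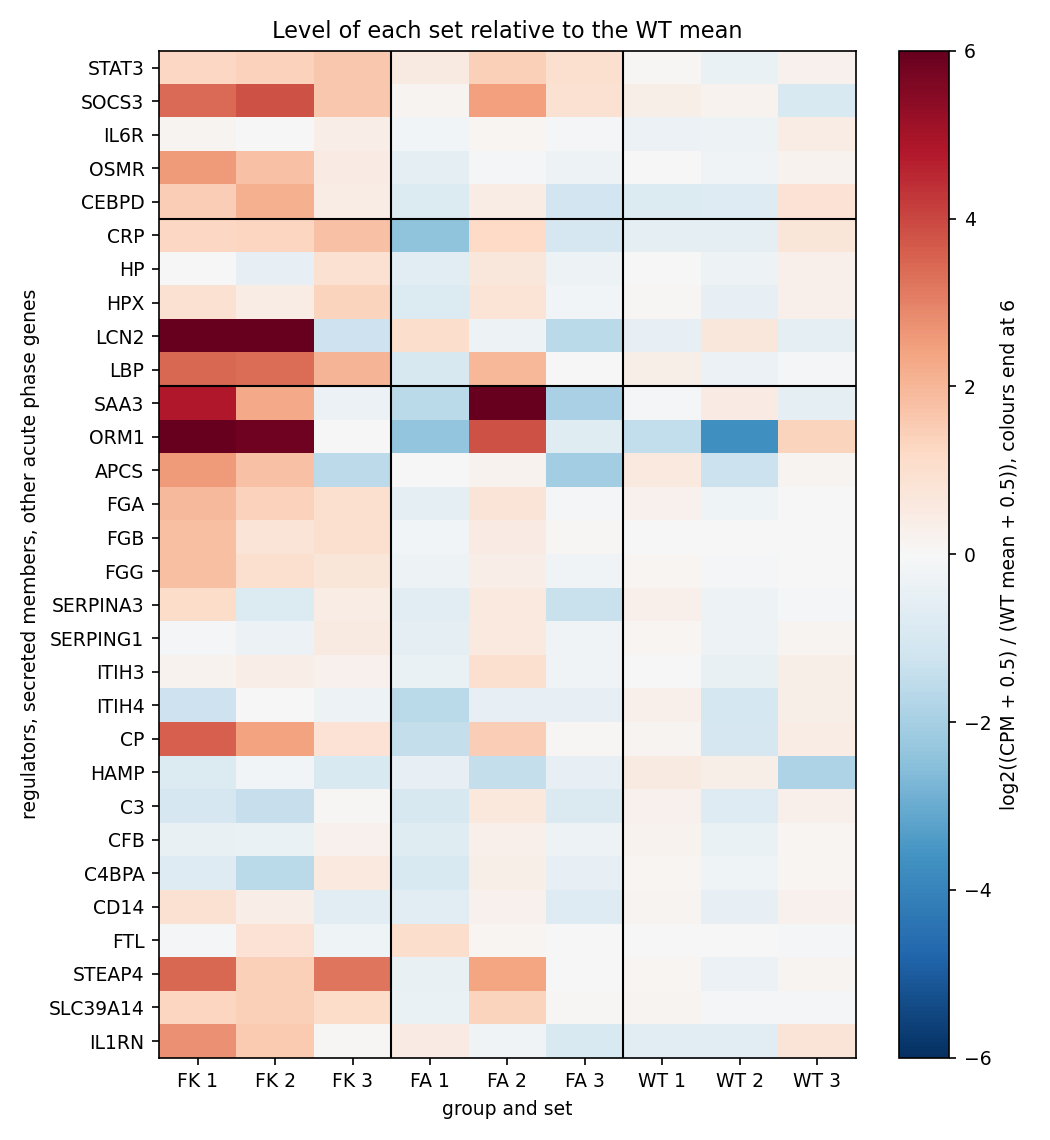
Heat map of the 10 genes and 20 other positive acute phase genes in the 9 sets, as log2 of the ratio of CPM plus 0.5 to the WT mean plus 0.5. Columns are sets, and colours end at 6 in both directions. FA 2 is warm beside FA 1 and FA 3 for CRP, LBP, SAA3 and ORM1, and FK 3 is cooler than FK 1 and FK 2 for LCN2 and ORM1.

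Upstream of STAT3, 2 of 8 tested genes for gp130 ligands and receptor chains rose in FK and 0 fell, beside 3.04% and 1.73% of all genes. The median change of the 8 was 0.55, against 0.05 over all genes. The 2 genes were OSM, encoding oncostatin M, and CLCF1, encoding a cytokine of the same family. OSM had 2.83, 4.50 and 0.287 CPM in FK, 0.182, 0.616 and 0.402 CPM in FA, and 0.0639, 0.0322 and 0.0810 CPM in WT, which is 11 counts over the 3 WT sets (log2 change 5.38, SE 1.03, edgeR adjusted p = 0.0368). CLCF1 had 1.69, 1.46 and 0.760 CPM in FK, 0.561, 1.54 and 0.786 CPM in FA, and 0.0639, 0.145 and 0.0648 CPM in WT, or 17 counts. All FK and FA sets exceeded all WT sets for both. The CLCF1 change was 3.81 in FK (SE 0.61, edgeR adjusted p = 0.0255) and 3.37 in FA (edgeR adjusted p = 0.0934, the smallest p of the list there).

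The next 3 genes of this list were added after their values were seen. IL6 itself had 0 counts in FK, 0 in FA and 2 in WT over all sets and was not tested. IL6ST had 438, 278 and 735 CPM in FK, 482, 381 and 509 CPM in FA, and 312, 399 and 407 CPM in WT, with an FK change of 0.38 (edgeR adjusted p = 0.539). LIFR, the chain that pairs with gp130 for leukemia inhibitory factor, gave 0.08 (edgeR adjusted p = 0.916). OSM was highest in FK 1 and FK 2, as the neutrophil marker sum was, and a part of those cells in it was not tested. Without FK 3, 3 of 8 were called higher, beside 18.7% of all genes, and from FK 3 alone 0 of 8, beside 0.34%.

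Among kinases, phosphatases and other parts of the pathway, 0 of 18 were called in FK by edgeR, 2 had an unadjusted p under 0.05, against 26.9% of all genes, and DESeq2 called 0. The smallest p was that of PTPN6, the phosphatase SHP-1 of blood cells, at 26.0, 32.9 and 9.88 CPM in FK, against 12.2, 10.2 and 11.03 CPM in WT (log2 change 1.04, edgeR adjusted p = 0.128). Of 16 tested genes of interleukin-1 and TNF signalling edgeR called 0, with 1 unadjusted p under 0.05, that of IL1RN, the antagonist of the interleukin-1 receptor, and DESeq2 called IL1RN. It had 49.9, 22.0 and 7.48 CPM in FK, against 4.14, 4.36 and 12.5 CPM in WT (log2 change 1.91, edgeR adjusted p = 0.134). In FA against WT the smallest p-values of these lists were those of STAT6 (edgeR adjusted p = 0.555) and TRAF6 (edgeR adjusted p = 0.498).

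Of 11 liver transcription factors that act on acute phase genes edgeR called 0 in FK against WT. An unadjusted p under 0.05 was found for 4, all lower in FK, against 26.9% of all genes in either direction. DESeq2 called 2 as lower, CEBPA among them, and 950 of all its 16435 genes. CEBPA, the factor of the resting hepatocyte, had 16.9, 26.4 and 81.8 CPM in FK, 210, 199 and 152 CPM in FA, and 264, 241 and 112 CPM in WT. All FK sets lay below all FA and WT sets (log2 change -2.30, SE 0.59, edgeR adjusted p = 0.0555). CEBPD and CEBPA thus had fitted FK changes of opposite sign, neither of them called.

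Downstream, 2 of 17 genes known as STAT3 targets in human or mouse cells rose in FK and 0 fell, beside 3.04% and 1.73% of all genes. The median change of the 17 was 0.86, against 0.05 over all genes. FOSL2, an AP-1 factor, had 29.5, 22.3 and 13.6 CPM in FK, 5.85, 9.20 and 7.43 CPM in FA, and 5.30, 4.69 and 10.2 CPM in WT (log2 change 1.70, SE 0.38, edgeR adjusted p = 0.0471). BCL3, a partner of NF-kappaB, had 9.86, 13.9 and 2.03 CPM in FK, 2.13, 3.14 and 1.42 CPM in FA, and 1.58, 0.773 and 1.13 CPM in WT (log2 change 2.88, SE 0.66, edgeR adjusted p = 0.0483). FK sets exceeded all WT sets for both. An unadjusted p under 0.05 was found for 8 of 17, all higher in FK, and for 26.9% of all genes. Without FK 3, 8 were called higher and 1 lower, beside 18.7% and 16.2% of all genes, and from FK 3 alone 0 were called, beside 0.34% of all genes called higher. FK 3 was the lowest FK set for FOSL2 and BCL3, where the marker sums of neutrophils and erythroid cells were lowest too, and the part of those cells was not tested.

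Plasma proteins that fall in an acute phase response in human or mouse had a median change of -0.66 in FK over 20 genes, against 0.05 over all genes. Of the 20, 0 were called lower and 1 higher, beside 1.73% and 3.04% of all genes. The called gene was APOA1, the main protein of high density lipoprotein, at 2716, 2564 and 74.8 CPM in FK, 62.1, 115 and 62.6 CPM in FA, and 27.95, 34.2 and 49.2 CPM in WT (log2 change 5.59, SE 1.13, edgeR adjusted p = 0.0404). Without FK 3, 11 of the 20 were called lower, as were 16.2% of all genes, and 3 higher, as were 18.7%. TTR, transthyretin, chosen after its values were seen, had 838, 1136 and 3293 CPM in FK, against 3741, 4039 and 4440 CPM in WT (log2 change -1.21, edgeR adjusted p = 0.214). Among 11 tested genes of heme and iron scavenging and handling, 2 rose in FK, beside 3.04% of all genes. CD163, the macrophage receptor for haptoglobin bound to hemoglobin, had 31.0, 27.9 and 1.30 CPM in FK, 0.309, 0.373 and 1.25 CPM in FA, and 0.192, 0.322 and 0.130 CPM in WT (log2 change 6.54, edgeR adjusted p = 0.0355). The summed level of 10 macrophage markers, CD163 among them, was 439 to 717 CPM in FK, 295 to 388 CPM in FA and 546 to 695 CPM in WT. TFRC, the transferrin receptor, had 189, 322 and 143 CPM in FK, 131, 242 and 109 CPM in FA, and 24.5, 19.0 and 28.1 CPM in WT. Its change was 3.19 in FK (edgeR adjusted p = 0.0150) and 2.75 in FA (edgeR adjusted p = 0.0551).

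The 8 pathway lists hold 119 tested genes. In FK against WT edgeR called 7 of the 119, and 712 of all 14939 genes. An unadjusted p under 0.05 was found for 36 (30.25%), near the 26.9% of all genes. DESeq2 called 27 of the 119, and 2706 of all its 16435 genes. In FA against WT edgeR called 0 of the 119, and 6 (5.04%) had an unadjusted p under 0.05, against 10.2% of all genes. DESeq2 called 2 of them, and 335 of all its 16049 genes. The smallest p-values there not yet given included those of ICAM1 and AHSG (log2 changes -0.61 and 1.03, edgeR adjusted p of 0.503 and 0.526). In FA against FK edgeR called 0 of 119, and 30 (25.2%) had an unadjusted p under 0.05, near the 21.9% of all genes. DESeq2 called 23 of them, and 1778 of all its 16049 genes. The smallest p of a list was that of OSM, IL1RN, STAT6, CEBPA, FOSL2, APOA1 or CD163, with edgeR adjusted p of 0.115 to 0.164. CEBPA alone of these was higher in FA, by 2.17 log2 units, and FOSL2 differed by -1.54.

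For each of the 10 genes the nearest profiles were sought among 8246 genes with a symbol and a mean of at least 5 CPM, by the root mean square difference of centred log2 levels over the 9 sets, a description with no test. OSMR was nearest to IL1R2, the decoy receptor of interleukin-1, at 0.20 log2 units, with 193, 107 and 38.7 CPM in FK, 18.3, 18.8 and 18.4 CPM in FA, and 29.2, 25.8 and 30.0 CPM in WT. LCN2 was nearest to CAMP at 0.58, and LBP to C5AR2, a receptor of complement fragment C5a, at 0.45 and to CP at 0.52. HP was nearest to SERPING1, the inhibitor of complement C1, at 0.17, and C8B, a chain of complement C8, stood at 0.19. HPX was nearest to BCL6 at 0.19, IL6R to SERPINC1, antithrombin, at 0.13, and STAT3 to APH1B at 0.21. The next neighbours were PRR14L and CDYL2 for STAT3, ESYT2 and ZNF592 for IL6R, OXCT1 and MYO7A for OSMR, MYO19 and CHRD for HPX, TRAF1 for HP and PLEK2 for LBP. The nearest genes to SOCS3, CEBPD and CRP were WIPI1 at 0.52, RGS2 at 0.39 and GRO-A, the rabbit symbol, at 0.56, followed by SDC4 and PLXNB1, DDIT4 and EHD3, and SLC43A3 and XDH. The next neighbours of LCN2 bear the rabbit symbols MCP-1 and MCP2. Within the 10 genes the nearest pair was IL6R and HP at 0.38, followed by HP and HPX at 0.40, while LCN2 lay at least 2.30 from every other gene.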

How the data were processed

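RNA came from rabbit livers treated with trypsin, by TRIzol, and was made into TruSeq RNA libraries, per the labels' protocols. Strand is not stated, which leaves genes overlapping on opposite strands uncertain. The deposited table holds estimated counts, whole numbers per gene and library. The submitters' processing notes name Salmon 0.14.1, while its role, the build and the annotation were not given in the sources used here. All 36 columns were used, with totals of 11.7 to 22.5 M counts. The 4 libraries of each titled set were summed. One edgeR model (version 4.0.16, R 4.3.3) held all 9 sets, with TMM scaling, the filterByExpr filter and quasi-likelihood F tests, and p-values were adjusted over 14939 genes. The procedure was tested on simulated data. CPM are given per set or as mean ± SD.

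The 10 genes and all lists were chosen with earlier results of these data known, and the lists are for description. Named genes are the 10, FAH, up to 3 called members of a list or else that with the smallest p, and the 3 nearest profiles. Other names are marked as chosen later. A gene that this rule names is not reported here. Symbols of LOC identifiers came from the RefSeq table of assembly mOryCun1.1. Alternatives were DESeq2 1.42.0, limma-voom (limma 3.58.1) on 36 libraries, RLE factors, other filters, 2-group fits, a replicate block, single libraries and sets left out. Leaving out FK 1 and FK 2 together, and counting list members without FK 3, were choices made after seeing the data. Figures come from matplotlib 3.10.9.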

Additional observations from a re-analysis of the deposited data

How the results depend on the processing

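Of the 10 genes, 3 were called in FK against WT. DESeq2 called 5, limma-voom 7, fits of 2 groups only 0, library 1 of each set alone 0 and the replicate block 0, and RLE factors or no filter called 2, losing OSMR at adjusted p of 0.0503 and 0.0504. With a set left out the count was 0 to 6. Over all genes the count of 712 was 2706, 2448, 43, 189 and 47 in the same order, 22 to 5396 with a set left out, and 77 without FK 1 and FK 2. In FA against WT the count of 0 was 1 (STAT3) by DESeq2 and by limma-voom, and over all genes the 25 became 335 by DESeq2, 440 by limma-voom, 235 in 2 groups only, 3 with the replicate block, 2 to 247 with a set left out and 189 without FK 1 and FK 2. In FA against FK the count of 0 was 4 by DESeq2, 6 by limma-voom and 0 to 5 with a set left out, and over all genes 1778, 2169 and 0 to 5324. Fits of 2 groups, the replicate block and fits without a set have fewer residual degrees of freedom, and the cause of these changes and of the others was not tested.

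Same-numbered sets did not deviate together (r of -0.087 to 0.099, own number nearest in 2 of 18). Each group has few sets, and the FK sets did not resemble each other equally, so this check cannot decide whether the numbers pair the sets. The main model assumed no pairing, and the replicate block takes degrees of freedom.

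Of 540 single values 450 kept direction and side of the threshold, 27 passed it, 38 no longer passed it and 25, none of them called, changed sign. In FA against WT these were IL6R at 0.0186 (replicate block) and 0.013 (limma-voom), CRP at 0.11 (library 1), HP at -0.0712 (limma-voom), and LCN2 at -0.79 (replicate block) and -0.59 (limma-voom). Without FK 1 and FK 2, LCN2 was -2.36 in FK against WT and 2.503 in FA against FK. With sets left out, the ranges in FA against WT were -0.165 to 0.27 for IL6R, -0.99 to 0.46 for CEBPD, -1.53 to 0.53 for CRP, -0.48 to 0.27 for HP, -0.46 to 0.42 for HPX, -1.32 to 0.95 for LCN2 and -0.44 to 1.299 for LBP. For HP they were -0.26 to 0.90 in FK against WT and -0.88 to 0.28 in FA against FK, and for LCN2 -2.36 to 7.95 and -8.47 to 2.503. Depth limits LCN2 in FK 3 and FA 3 and the cytokine genes OSM and CLCF1 in WT.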
